A study of Canis lupus familiaris with 28 samples.

Results

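The comparison described here is that of wild-type TR-T10 cells grown to confluence with the same cells kept sub-confluent. It was drawn from the first of the study's 2 sequencing experiments and held 4 of the 28 libraries of the series, titled c1 and c2 (confluent) and s1 and s2 (sub-confluent). TR-T10 is a dog cell line whose introduced constructs are controlled by a tetracycline repressor. The wild-type libraries are labelled as carrying neither the p190A shRNA nor the p190B shRNA. The other 12 libraries of experiment 1 came from cells with p190A shRNA, p190B shRNA or both, 4 libraries of each, again confluent and sub-confluent. The protocol that accompanies every sample describes 3 days in 4 µg/ml doxycycline, then replating at either density for 3 to 5 days. Of the 28 libraries 27 are distinct, since a pair in experiment 2 that is not used here hold identical counts. Whether the wild-type cells received doxycycline is not stated, and neither is the number of cultures behind the 2 libraries of a density.

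Epithelial cells slow their division once they touch neighbours on all sides, a behaviour called contact inhibition. The Hippo pathway takes part in it: in crowded cells its kinases keep the coactivator YAP1 out of the nucleus, so that genes bound by YAP1 with TEAD factors are less transcribed. p190A (ARHGAP35) and p190B (ARHGAP5) are GTPase-activating proteins, and the study examines their part in this response. The wild-type cells give the response with both proteins left in place.

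The deposited tables give counts by Ensembl transcript identifier, and none of the 29884 identifiers was found among the 43286 dog genes of the reference table. Neither YAP1 targets nor epithelial markers could therefore be looked up, and the response is described by transcript level, by presence or absence and by size. Only 4 identifiers are printed, chosen by rule. Libraries held 10706716 and 12729233 transcript-assigned reads at confluence and 12213169 and 13952665 in sub-confluent cells. Levels are given in CPM, counts scaled to a common library size after TMM normalisation. CPM are not scaled by transcript length, and reads shared by overlapping transcripts are left out. A transcript called rare below is therefore one with few assigned reads.

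The shares of reads set aside during counting moved with density. Alignments to several places made up 26.1% and 26.6% of entries at confluence and 28.6% and 28.9% in sub-confluent cells. Reads outside any transcript were 23.6% and 22.9% of uniquely aligned reads at confluence against 21.2% in each sub-confluent library. Reads falling on several overlapping transcripts were 21.7% and 22.2% against 23.1% and 22.9%. The part of these shares in the results below was not tested.

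Many transcripts differed between the densities, most of them by a fitted change under 2-fold. Of 12845 transcripts tested, 1839 (14.3%) were higher and 1930 (15%) lower at confluence (edgeR quasi-likelihood test, adjusted p under 0.05), 29.3% in all. The transcripts that rose did so by a median of 1.85-fold, and those that fell by a median of 1.56-fold. Among the calls, 2532 (67.2%) had a fitted change under 2-fold. Omitting a wild-type library left 1918 calls (confluent replicate 1), 1775 (confluent replicate 2), 2323 (sub-confluent replicate 1) or 1415 (sub-confluent replicate 2). In 4526 transcripts both confluent libraries lay above both sub-confluent ones, and in 4494 both lay below, together 70.2% of those tested. With 2 libraries a density such separation also arises without a change, and 5251 of these transcripts were not called.

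**Figure D1:**
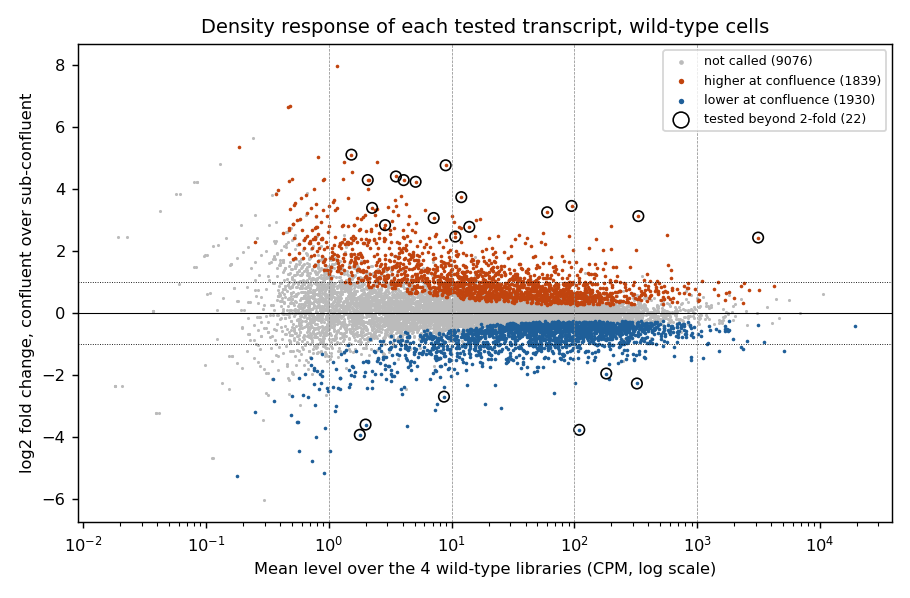
Each point is 1 of the 12845 tested transcripts; the x axis is the mean level over the 4 wild-type libraries in CPM on a log scale and the y axis the log2 fold change of confluent over sub-confluent cells. The 1839 transcripts higher at confluence are orange, the 1930 lower are blue, and the 22 that tested beyond 2-fold are ringed; most called points lie between the dotted lines at 2-fold.

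The profile of each library as a whole shows how much of its transcript-assigned reads, here called the pool, this amounts to. Expressed as shares of a library, the counts of confluent replicates 1 and 2 differed in the assignment of 5.66% of reads, and those of the sub-confluent replicates in 5.59%. Between a confluent and a sub-confluent library the figure was 13.6% to 15.1% in the 4 pairings. Each between-density difference was thus above both replicate differences. The move was spread over many transcripts: 181 accounted for 50% of the gain at confluence and 222 for 50% of the loss. The single transcript with the highest gain made up 3.55% of all gain, and the one with the highest loss 3.67% of all loss. Of the 10 transcripts with the most gain, 7 were called higher, against 14.3% of all tested. Of the 10 with the most loss, all 10 were called lower, against 15%. The same 4 libraries set the ranking and the calls, so these counts are no separate support.

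**Figure D2:**
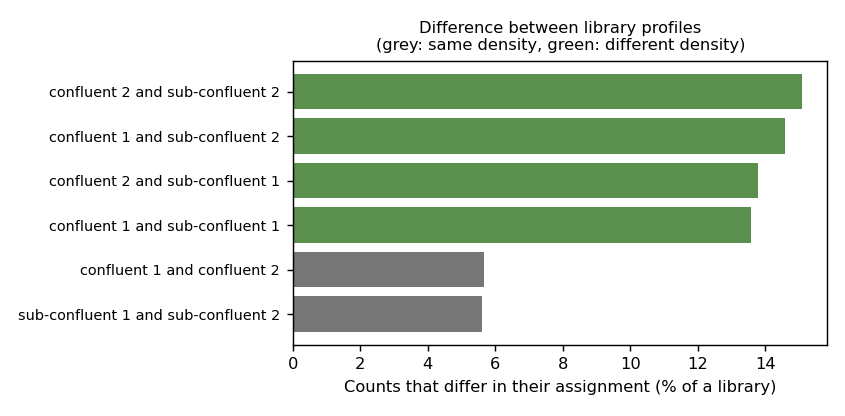
Bars give, for each of the 6 pairs of wild-type libraries, the share of a library's counts (in %) that would have to be reassigned between transcripts to turn one profile into the other. The 2 pairs of the same density (grey) lie at 5.59% and 5.66%, and the 4 pairs of different density (green) between 13.6% and 15.1%.

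Transcripts called higher rose from 10.8% and 10.3% of the sub-confluent libraries to 18.2% and 19.1% of the confluent ones. Those called lower went from 32.6% and 33.2% to 22.1% and 21.8%. The lowered transcripts thus held a larger part of the pool than the raised ones in every library. The pool was about equally concentrated at both densities. Its 100 most abundant transcripts took 22.8% and 21.5% of counts at confluence and 21.7% and 21.6% in sub-confluent cells, and 50% of counts lay in 742 and 759 transcripts against 736 and 743.

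More transcripts were detected at confluence. With at least 1 count, 15804 and 15769 were detected in the confluent libraries and 15359 and 15420 in the sub-confluent ones, and the ranges did not overlap. Thinned to the 10706716 reads of the smallest library, the expected numbers were 15804 and 15549 against 15197 and 15091. Rare transcripts made up slightly more of the pool at confluence: those with a mean level of 1 to 10 CPM took 1.67% and 1.63% of counts there and 1.41% and 1.4% in sub-confluent cells.

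Direction went with abundance. Transcripts were placed in 5 classes by their mean level over the 4 wild-type libraries. In the class from 1 to 10 CPM, 543 of 3512 tested transcripts rose and 248 fell, so that 68.6% of the calls were higher at confluence. From 10 to 100 CPM the numbers were 898 and 977 of 5915, or 47.9% higher. From 100 to 1000 CPM, 299 rose and 647 fell of 2230, or 31.6% higher. The 98 transcripts at 1000 CPM or more had 19 higher and 26 lower. Below 1 CPM, 1090 transcripts could be tested, and 80 rose and 32 fell. The median log2 fold change of all tested transcripts, called or not, also moved with class. It was 0.33 under 1 CPM, 0.15 from 1 to 10 CPM and -0.02 from 10 to 100 CPM. From 100 to 1000 CPM it was -0.11, and at 1000 CPM or more -0.07. The part of this shift of whole classes in the split of the calls was not tested.

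The split from 1 to 10 CPM favoured higher calls, and that from 100 to 1000 CPM lower calls, in each of 26 alternative settings. These spanned 58.9% to 77.4% and 24% to 39.7% higher. The balance from 10 to 100 CPM was not stable: it was 57.7% higher without a scaling factor and 52.2% without confluent replicate 2. Below 1 CPM the share higher was 71.4%, but 54% when classes came from the 3 confluent wild-type libraries of experiment 2 and 50% without sub-confluent replicate 2. At 1000 CPM or more it ranged from 26.9% to 50% over the 26 settings. With classes from experiment 2, the share from 1 to 10 CPM was 65.3% and that from 100 to 1000 CPM was 36.2%. The class difference itself was not tested.

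The share of transcripts called rose with abundance, from 10.3% under 1 CPM through 22.5%, 31.7% and 42.4% to 45.9% at 1000 CPM or more. Precision rose alongside. The median 95% interval reached 2.59-fold to either side of the estimate under 1 CPM and 1.62-fold from 1 to 10 CPM. It reached 1.26-fold from 10 to 100 CPM, 1.19-fold from 100 to 1000 CPM and 1.23-fold at 1000 CPM or more. The smallest change called was 2.48-fold under 1 CPM and 1.19-fold from 100 to 1000 CPM. Measured against the replicates, the density difference stood out least among rare transcripts. The density value was taken between means of 2 libraries, which vary less than the single libraries of the replicate value. Equal values would therefore not mean an absent difference. Under 1 CPM the median absolute log2 difference between densities was 0.60, and between replicates 0.48 (confluent) and 0.41 (sub-confluent). From 100 to 1000 CPM it was 0.29 between densities, against 0.090 and 0.12 between replicates.

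**Figure D3:**
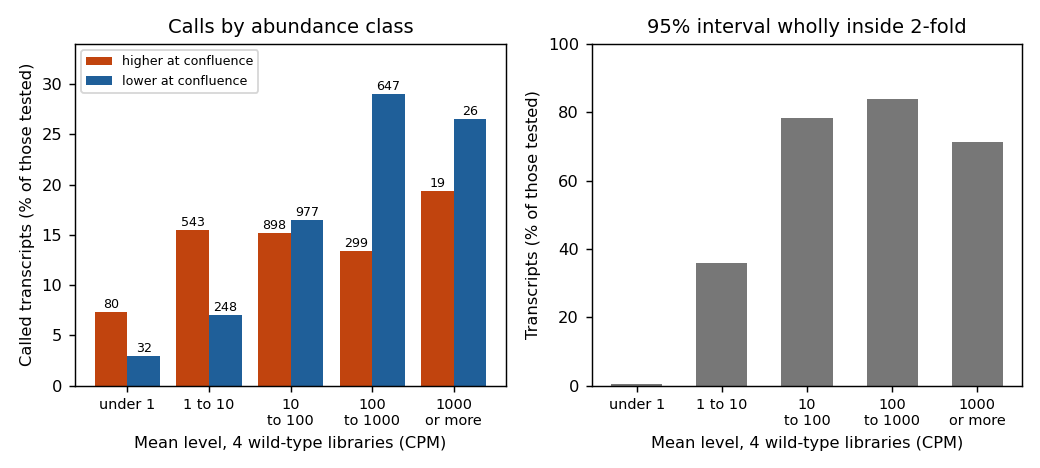
Left, the share of tested transcripts called higher (orange) or lower (blue) at confluence in each class of mean CPM, with the number called above each bar; higher calls outnumber lower ones under 10 CPM (543 against 248 from 1 to 10 CPM) and the reverse holds from 100 to 1000 CPM (299 against 647). Right, the share whose 95% interval lies wholly inside 2-fold, from 0.367% under 1 CPM to 83.8% from 100 to 1000 CPM, and 71.4% at 1000 CPM or more.

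Almost no transcript was switched on or off by density at this depth. Over all 29884 transcripts, 3 had 0 counts in both sub-confluent libraries and at least 10 in each confluent one, and 0 had the opposite pattern. A count of 0 allows up to 3 counts, or 0.219 to 0.250 CPM in the sub-confluent libraries and 0.229 to 0.274 CPM in the confluent ones. These limits cover counting error only. The numbers rested on the definition and on single libraries. Leaving out confluent replicate 1 gave 5 at each density, and leaving out confluent replicate 2 gave 4 and 3. Without sub-confluent replicate 1 or 2 there were 8 and 2, or 10 and 0. With all 4 libraries, 8 and 1 transcripts qualified at 5 counts, 0 and 0 at 20 counts, 12 and 3 with up to 1 count in the lower density, and 7 and 2 with limits of 1 and 0.1 CPM.

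Taken 1 library against 1 library, 15 to 18 transcripts had at least 10 counts in a confluent library and 0 in a sub-confluent one, and 4 to 8 the reverse. Between replicates of the same density there were 0 to 4. With any count in both libraries of a density and 0 in both of the other, 285 transcripts were seen at confluence alone and 146 in sub-confluent cells alone, with a median of 3 summed counts each. In the 3 confluent wild-type libraries of experiment 2, which took no part in that choice, 102 of the 285 had a count in all 3 libraries and 46 in none. Of the 146, 37 had a count in all 3 and 32 in none.

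ENSCAFT00000047089 had the highest level of the 3 transcripts found at confluence alone. It had 15 and 43 counts in the confluent libraries, or 1.37 and 3.28 CPM, and 0 in both sub-confluent libraries. Measured against the limit of 3 counts over the sub-confluent group, it was at least 20.6-fold higher at confluence (edgeR adjusted p = 0.045). The call was marginal: it held in 14 of 25 alternative fits, with adjusted p between 2.6e-12 and 0.18, and was lost when replicates were blocked within density (edgeR adjusted p = 0.080). Experiment 2 gave 3.65, 3.73 and 4.47 CPM for this transcript in confluent wild-type cells. In p190A knockdown cells it had 9 and 40 counts at confluence and 3 and 0 in sub-confluent cells, and in p190B knockdown cells 2 and 33 against 3 and 1. With both knockdowns it had 0 and 48 counts at confluence and 18 and 4 in sub-confluent cells. Confluent replicate 2 had the higher count in all 4 lines of experiment 1.

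The second of these 3 transcripts had 11 and 12 counts at confluence and 27, 20 and 27 in experiment 2. The third had 12 and 10 counts at confluence and 1, 5 and 5 in experiment 2. The second was thus at 1.41 to 1.88 CPM in the separate confluent libraries, above its 0.914 and 1.00 CPM here, and the third at 0.0619 to 0.352 CPM, below its 0.762 and 1.09 CPM here.

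At the other end of the scale, the size of the response was tested against 2-fold. Among called transcripts, 780 higher and 457 lower ones had a fitted change of at least 2-fold, but 22 (0.171% of those tested) could be shown to exceed 2-fold (edgeR glmTreat, adjusted p under 0.05), 16 higher and 6 lower. This number depended on the fit. It was 41 (35 higher, 6 lower) with a replicate block within density, 15 of them among the 22, and 37 with a block over both densities, 266 when only the 4 wild-type libraries were fitted, and 366 without the filter on low counts. Leaving out a library gave 2 to 129. Without sub-confluent replicate 1 or 2 of the wild type it was 2 or 3, and without confluent replicate 1 or 2 it was 12 or 4. It was 14 without either confluent p190A library, 11 without either sub-confluent p190B library, and 129 without either sub-confluent p190A library. All 22 were among the 129 and the 366, and 21 of them among the 266.

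The 16 raised transcripts changed by 5.39-fold to 34.5-fold and covered a wide range of mean levels, from 1.53 to 3139 CPM. The 6 lowered ones changed by 3.89-fold to 15.3-fold, at mean levels of 1.79 to 323 CPM. In each of the 22 the libraries of the 2 densities did not overlap, which also held for all 1839 higher and all 1930 lower calls. The same libraries chose these transcripts, so the separation is no separate support. The nearest confluent and sub-confluent values differed by 3.62-fold to 28.5-fold, with a median of 7.28-fold. The most abundant of the raised transcripts stood at 4868 and 5724 CPM at confluence and at 982 and 983 CPM in sub-confluent cells.

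**Figure D4:**
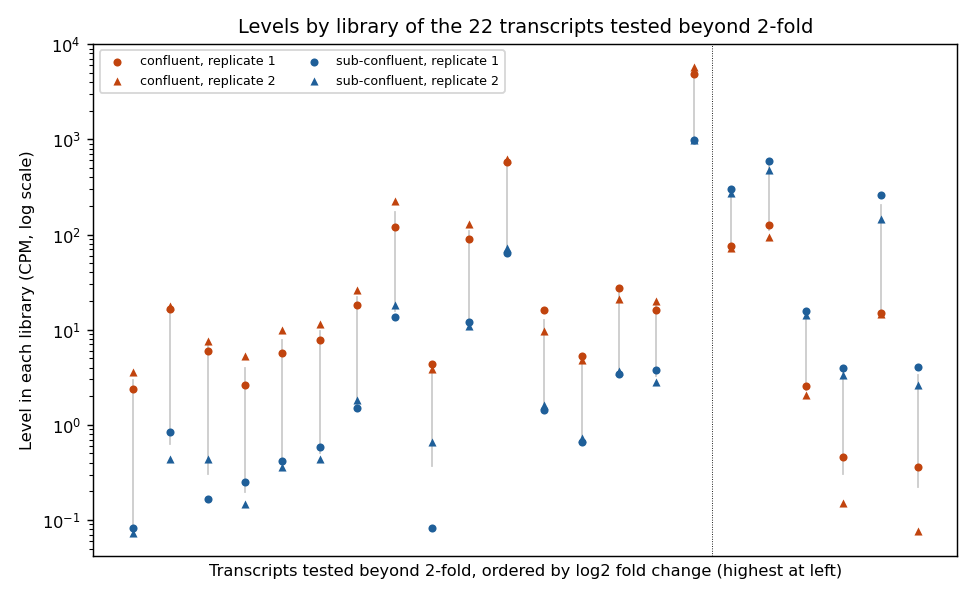
Levels in CPM on a log scale of the 22 transcripts that tested beyond 2-fold, ordered by log2 fold change, with 1 symbol per library (orange confluent, blue sub-confluent; circles replicate 1, triangles replicate 2) and grey lines joining the density means. In all 16 raised transcripts (left of the dotted line) and all 6 lowered ones (right), confluent and sub-confluent symbols do not overlap, the nearest being 3.62-fold apart. The same libraries chose these transcripts.

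ENSCAFT00000015117 had the largest rise among well-measured transcripts, those with a mean log2 CPM of at least 3. Its level was 121 and 227 CPM in the confluent and 13.5 and 18.2 CPM in the sub-confluent libraries. Both confluent values lay far above both sub-confluent ones, although they also differed from each other. The means were 174 ± 74.7 CPM and 15.8 ± 3.30 CPM (SD, n = 2 each), an 11-fold difference with a log2 fold change of 3.45 (SE 0.38, edgeR adjusted p = 3.0e-04; beyond 2-fold, adjusted p = 6.2e-03). Confluent wild-type cells of experiment 2 held 71.9, 63.5 and 69.4 CPM, between the confluent and sub-confluent values of experiment 1.

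ENSCAFT00000013912 had the largest fall by the same rule. It was at 15.0 and 14.8 CPM at confluence and at 262 and 146 CPM in sub-confluent cells. The confluent libraries were nearly equal and the sub-confluent ones were spread. Density means were 14.9 ± 0.128 CPM and 204 ± 81.9 CPM (SD, n = 2 each). On the log2 scale the fitted change was -3.78 (SE 0.28, edgeR adjusted p = 3.2e-05; beyond 2-fold, adjusted p = 1.8e-04). In experiment 2 the confluent level was 13.2, 10.4 and 12.9 CPM, close to that of experiment 1.

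ENSCAFT00000045668 came next among the lowered transcripts, since none met the definition of being present in sub-confluent cells alone. It was at 4.65 and 5.94 CPM at confluence and at 51.0 and 38.5 CPM in sub-confluent cells, with no overlap. Its log2 fold change was -3.07 (SE 0.52, edgeR adjusted p = 1.5e-03). A change beyond 2-fold was not shown for it (adjusted p = 0.076). Its confluent level in experiment 2 was 5.76, 4.50 and 4.95 CPM.

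For many transcripts the interval bounded the change below 2-fold. The 95% interval of the log2 fold change lay wholly inside 2-fold for 7840 transcripts, 61% of those tested. Of these, 1512 were called, so their change was both detected and bounded. The intervals were per transcript, without adjustment over the transcripts tested. The count beyond 2-fold was adjusted, so it and the count of intervals are not on the same standard. Of the 9076 transcripts not called, 6328 (69.7%) had an interval inside 2-fold. For the remaining 2748 a change of 2-fold or more was not excluded by the interval. These were mostly rare. Of the 1090 transcripts tested under 1 CPM, 4 were bounded inside 2-fold and 112 were called. Of the 3512 from 1 to 10 CPM, 1262 were bounded and 791 were called. Over all tested transcripts of a class, called or not, the share bounded was 35.9% from 1 to 10 CPM. It was 78.4% from 10 to 100 CPM and 83.8% from 100 to 1000 CPM.

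Pooled over abundance, the calls were asymmetric in size. Of the higher calls, 23.9% were under 1.5-fold and 8.59% between 4 and 8-fold. Of the lower calls, 42.2% were under 1.5-fold and 2.49% between 4 and 8-fold. Within abundance classes, higher and lower calls were closer in size. Their median log2 fold changes were 2.44 and -2.48 under 1 CPM and 1.38 and -1.23 from 1 to 10 CPM. From 10 to 100 CPM they were 0.75 and -0.62, and from 100 to 1000 CPM 0.58 and -0.54. At 1000 CPM or more they were 0.67 and -0.59. The part of abundance in the asymmetry was not tested. At 8-fold or more there were 66 higher and 18 lower transcripts. Among all calls, 4 higher and 1 lower had no count at the other density, and with these set at the limit that 3 counts allow the numbers were 64 and 17. The transcripts with the greatest fitted changes were rare ones, with a median mean level of 1.53 CPM among the 66 and 0.926 CPM among the 18.

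The 3 confluent wild-type libraries of experiment 2 offered separate levels for the confluent state, though still against the sub-confluent libraries of experiment 1. Of the 780 transcripts called at least 2-fold higher at confluence, 689 (88.3%) had all 3 of these libraries above both sub-confluent ones, against 34.1% of all tested transcripts. Of the 457 called at least 2-fold lower, 412 (90.2%) had all 3 below, against 37% of all tested. The sub-confluent libraries used here had also taken part in choosing the transcripts, and experiment and density cannot be told apart in this comparison. All 16 raised and all 6 lowered transcripts that tested beyond 2-fold lay on the same side in experiment 2. For 15 of the 16, however, the 3 levels of experiment 2 were below both confluent levels of experiment 1, and for 3 of the 6 they were above both. The confluent libraries of experiment 1 had also taken part in choosing these transcripts. No share over all tested transcripts stands beside these counts, so they are no measure of a weaker response in experiment 2.

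The single knockdown lines of experiment 1 gave the same density comparison in other cells. Their libraries entered the joint estimate of the spread behind the wild-type calls, but not the wild-type group means. Same-numbered libraries of a density shared deviations across the lines, so these lines are not wholly separate replication. In p190A knockdown cells 497 transcripts were higher at confluence (3.87% of those tested) and 890 lower (6.93%). In p190B knockdown cells 577 were higher (4.49%) and 760 lower (5.92%). Standard errors had medians of 0.19 on the log2 scale in each of the 3 lines. They came from an estimate of the spread shared by all groups, so they could not show whether the lines were equally precise.

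Of the 1839 transcripts raised in wild-type cells, 438 were called higher and 0 lower in p190A knockdown cells, and 441 were called higher and 3 lower in p190B knockdown cells. Of the 1930 lowered, 754 and 646 were called lower and 0 higher in either line. The medians over the raised transcripts were 0.89 in wild-type, 0.53 in p190A knockdown and 0.51 in p190B knockdown cells on the log2 scale, where all tested transcripts had medians of 0.01, -0.01 and 0.02. Over the lowered transcripts they were -0.64, -0.45 and -0.41. The wild-type values chose these transcripts, so the smaller medians in the other lines are no measure of a weaker response. Of the 22 transcripts beyond 2-fold, all 16 raised and all 6 lowered had the same sign in both knockdown lines. Of all 12845 tested transcripts, 10517 shared the sign with p190A and 10241 with p190B knockdown. Called higher were 12 of the 16 with p190A and 14 with p190B knockdown, against 3.87% and 4.49% of all tested. Called lower were 4 of the 6 in each line, against 6.93% and 5.92% of all tested.

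Between size classes the order was kept in both knockdown lines. In the class raised 2 to 4-fold, the median log2 fold change was 0.85 with p190A and 0.82 with p190B knockdown, those raised 4 to 8-fold 1.47 and 1.45, and those raised 8-fold or more 2.19 and 1.91. For the lowered transcripts of the same classes the medians were -1.01 and -0.94, -1.59 and -1.64, and -2.08 and -2.37.

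**Figure D5:**
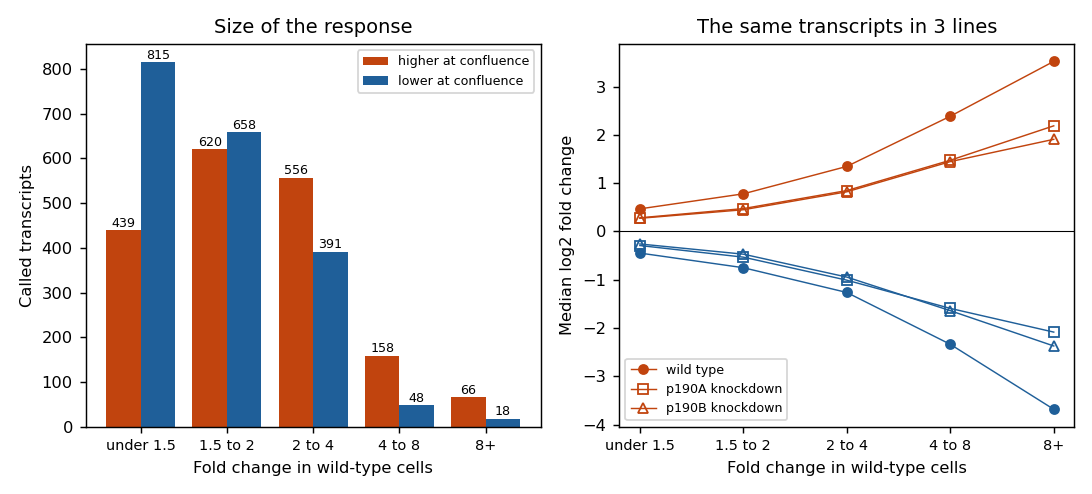
Left, the number of transcripts called higher (orange) or lower (blue) at confluence in wild-type cells by size of fold change, with 439 higher and 815 lower under 1.5-fold and 66 higher and 18 lower at 8-fold or more. Right, the median log2 fold change of the same transcripts in wild-type (filled circles), p190A knockdown (squares) and p190B knockdown cells (triangles); the wild-type values set the classes and lie farther from 0 throughout.

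Tested directly, the wild-type response minus the mean response of the single knockdown lines passed the threshold for 1 transcript (0.00779% of 12845; edgeR interaction contrast, adjusted p under 0.05). The next smallest adjusted p was 0.42, and 712 transcripts (5.54%) had an unadjusted p under 0.05. DESeq2 called 16, edgeR without the filter 118, and edgeR with a replicate block within density 9. The larger number of calls in wild-type cells was therefore not matched by transcripts at which the response could be shown to differ, and this does not show that the responses are alike, since the median standard error of the difference was 0.23.

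Of the printed transcripts, ENSCAFT00000015117 had log2 fold changes of 2.32 (SE 0.54) with p190A and 1.99 (SE 0.57) with p190B knockdown, and ENSCAFT00000013912 of -2.82 (SE 0.37) and -3.96 (SE 0.33). Their levels were lower in those lines: ENSCAFT00000015117 was at 3.86 and 9.74 CPM in confluent p190A knockdown cells, and ENSCAFT00000013912 at 9.99 and 14.2 CPM in sub-confluent ones.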

How the data were processed

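PolyA-selected TruSeq libraries were sequenced as single reads, per the labels' protocols. Tools named in the submitters' processing notes, without roles, were DESeq2 1.4.5, HTSeq 0.6.0 and STAR 2.3.1n, with the build CanFam3.1. The strand setting of the counting is not stated in these sources. The authors deposited raw, whole-number counts per Ensembl transcript, with 5 summary rows, which were dropped before scaling and testing. Reads shared by overlapping transcripts are in a summary row, so such transcripts are measured from part of their reads. Summary rows are named differently in the files of the 2 experiments.

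Groups and replicate numbers came from the sample titles. The 16 libraries of experiment 1 were fitted together with 8 group means in edgeR 4.0.16 (R 4.3.3) after filterByExpr and TMM scaling, with robust quasi-likelihood F-tests, glmTreat at 2-fold and Benjamini-Hochberg adjustment over the 12845 transcripts tested. The 8 groups share an estimate of the spread. Standard errors and 95% intervals came from the F statistic and its degrees of freedom. The fit was tested on simulated data. Levels in experiment 2 used TMM factors over these 16 and 3 further libraries. DESeq2 1.42.0 and limma-voom 3.58.1 served as alternatives, besides other scalings, filters, replicate blocks and leaving out each library in turn.

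Separate cultures are not stated for the replicates, and p-values then reflect only the spread among libraries, possibly technical. Libraries with the same number shared deviations from their group means at the same density (r 0.142 to 0.537 over transcripts in 12 pairs of groups) but not across densities in wild-type cells (r = 0.0098). The labels give no reason for this. If libraries were handled together within a density, that handling cannot be told apart from density. The main fit held no replicate block. With a block within density 3192 transcripts were called, of which 2815 were among the 3769 of the main fit. Replicates differed with a chi-square per degree of freedom of 14.2 (confluent) and 12.1 (sub-confluent) over transcripts with at least 20 summed counts, so no library was a copy.

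Printed identifiers followed a rule: in each direction, the called transcript with the largest change among those averaging at least 3 in log2 CPM without overlap between densities, and the one present at a single density (0 counts against at least 10) with the highest level, or else the next by the first rule. The comparison, classes and rules were chosen with earlier results of these data known. Gene lists and markers were not run, since no identifier could be matched.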

Additional observations from a re-analysis of the deposited data

Results flagged for a closer look

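For 1 transcript the density response differed between wild-type cells and the mean of the single knockdown lines by 1.08 on the log2 scale (SE 0.13; edgeR interaction test, adjusted p = 0.012). Its level in wild-type cells was 184 and 200 CPM at confluence and 86.8 and 73.6 CPM when sub-confluent, and the fitted response was 1.26 (SE 0.11). In p190A knockdown cells it was 136 and 132 CPM at confluence and 120 and 108 CPM in sub-confluent cells, and in p190B knockdown cells 334 and 313 CPM against 295 and 301 CPM. The 2 densities did not overlap in any of the 3 lines, and the response was 0.23 (SE 0.11) and 0.12 (SE 0.10) in the knockdown lines. The call was lost when 1 of 7 libraries was left out: confluent wild-type replicate 1 or 2, sub-confluent wild-type replicate 2, confluent p190A replicate 1 or 2, and confluent or sub-confluent p190B replicate 2.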

How the results depend on the processing

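The count of 3769 calls stayed within 1.5 times under other scalings, filters, tools and blocks (3192 to 4321). It was 4545 in a fit of only the 4 wild-type libraries and 1645 at adjusted p under 0.01. DESeq2 called 3618, limma-voom 3622, edgeR with a replicate block 4144 and edgeR with a replicate block within density 3192, of which 3489, 3549, 3748 and 2815 were among the 3769 with the same sign. Leaving out a library gave 1415 to 4383 calls. Transcripts beyond 2-fold numbered 22, but 366 without the filter, 37 with a replicate block, 41 with a replicate block within density, 266 in a fit of the 4 wild-type libraries, and 2 to 129 with a library left out. Intervals inside 2-fold numbered 7840, and 6779 to 8502 over all alternatives. The interaction called 1 transcript, and 118 without the filter, 16 with DESeq2, 2 with a replicate block, 9 with a replicate block within density, and 0 to 14 with a library left out; 14 came without sub-confluent p190A replicate 2.

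Among abundance classes, calls under 1 CPM rose from 112 to 191 without the filter. From 10 to 100 CPM the share higher turned from 47.9% to 57.7% without scaling and ranged from 42.3% to 52.2% with a library left out, the latter without confluent replicate 2. Transcripts present at confluence alone numbered 3, and 8, 0, 12 and 7 under other limits, and 4 to 10 with a library left out; for sub-confluent cells alone they numbered 0, and 1, 0, 3 and 2, and 0 to 5. The excess of detected transcripts at confluence was 397, and 532.7 after thinning. Total counts without scaling shifted the median log2 fold change of all transcripts from 0.01 to 0.07. Some alternatives were chosen after seeing the data: the share higher by class in fits other than that without the filter and with classes from experiment 2, total counts for the size test, the intervals and the interaction, and the 1 CPM filter for the interaction. For ENSCAFT00000015117, ENSCAFT00000013912 and ENSCAFT00000045668, 25 of 25 alternatives kept direction and call. Where a value moved, the cause was not tested. When 1 library of a group is left out, the other is assumed to vary like the remaining groups. With 2 libraries a density, the smallest change called under 1 CPM was 2.48-fold.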
